A study of Homo sapiens with 12 samples.

Results

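RASSF4, DGKG, TENT5B, IGSF11 and RASD1 are 5 of the 63925 Ensembl genes counted in neural cultures made from human embryonic stem cells, and they are less familiar as glucocorticoid targets than FKBP5 or PER1. They were selected on the measured values themselves, because their counts were higher after dexamethasone in both cell lines. Their response to dexamethasone is therefore given as a description with no test, whereas their level in one line against the other and the behaviour of related and neighbouring genes were tested. Each symbol matched 1 gene, and all 5 were among the 17819 genes kept for testing.

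The series measured polyadenylated RNA after a short glucocorticoid exposure. The established embryonic stem cell lines H9 and H1 were used, and all cultures had been differentiated for 10 weeks by dual SMAD inhibition, which blocks 2 signalling routes and steers pluripotent cells to a neural fate. For 6 h each culture then received either 1 µM dexamethasone, a synthetic glucocorticoid, or DMSO vehicle, in a medium that contained BDNF, GDNF, cyclic AMP and ascorbic acid. Line and treatment gave 4 groups (H9 with vehicle, H9 with dexamethasone, and likewise for H1), with 3 sister cultures and so 3 libraries each. Each line stands for 1 genetic background, and no label tells whether a line's sister cultures came from more than 1 differentiation.

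Dexamethasone binds the glucocorticoid receptor, which moves into the nucleus and activates or represses genes through DNA elements that can lie near to or far from a start site. The 5 genes act in different processes. RASSF4 is a member of the Ras association domain family, whose SARAH domain can bind the MST kinases of the Hippo pathway. DGKG encodes diacylglycerol kinase gamma, which turns the second messenger diacylglycerol into phosphatidic acid, and TENT5B encodes a noncanonical poly(A) polymerase of the TENT5 family. IGSF11 encodes an adhesion molecule of the immunoglobulin superfamily that binds the postsynaptic scaffold PSD-95 and AMPA receptors and is also a ligand of the immune receptor VISTA. RASD1, also called Dexras1, encodes a small GTPase that was named for its induction by dexamethasone and that binds the neuronal nitric oxide synthase adaptor NOS1AP.

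The sequence around the start sites is shown because the 5 genes were higher together after a ligand of a DNA-binding receptor. RefSeq (GRCh38.p14) gave 6 promoters of 300 bases, from 250 bases before to 50 after the start, 1 for each gene and 2 for IGSF11. Of these, 3 are printed on the strand of the gene. That of RASSF4, the gene with the largest difference over both lines, held neither receptor letters nor a TATA match. Those of TENT5B and RASD1 each held a TATA match, and only that of TENT5B held receptor letters. Capitals mark AGAACA (a glucocorticoid receptor half-site), TATAAG (a variant of the TATA box), CACGTG (an E-box) and TGACG (the core of a cyclic AMP response element).
RASSF4 promoter, chr10:44959552-44959851, plus strand: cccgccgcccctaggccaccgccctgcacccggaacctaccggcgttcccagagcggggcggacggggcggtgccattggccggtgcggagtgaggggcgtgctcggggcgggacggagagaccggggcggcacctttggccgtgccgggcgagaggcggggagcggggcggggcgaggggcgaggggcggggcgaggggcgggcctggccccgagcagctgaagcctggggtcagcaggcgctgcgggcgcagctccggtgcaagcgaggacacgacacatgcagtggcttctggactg
TENT5B promoter, chr1:27012801-27013100, minus strand: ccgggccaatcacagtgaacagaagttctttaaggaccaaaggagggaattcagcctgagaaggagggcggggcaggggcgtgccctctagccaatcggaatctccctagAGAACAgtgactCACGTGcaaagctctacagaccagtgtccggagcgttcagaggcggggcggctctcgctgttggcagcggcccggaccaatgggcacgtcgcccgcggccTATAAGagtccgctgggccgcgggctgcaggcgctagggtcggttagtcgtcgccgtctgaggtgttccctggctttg
RASD1 promoter, chr17:17496346-17496645, minus strand: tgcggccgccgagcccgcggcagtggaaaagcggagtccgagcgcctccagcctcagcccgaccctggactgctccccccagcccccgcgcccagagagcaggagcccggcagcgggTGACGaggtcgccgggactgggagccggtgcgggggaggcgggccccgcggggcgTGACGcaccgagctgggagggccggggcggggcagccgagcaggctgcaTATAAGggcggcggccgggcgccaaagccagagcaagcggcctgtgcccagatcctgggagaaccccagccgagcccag

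The letters AGAACA, searched on both strands, were in the promoter of TENT5B alone among the 6, where they began 140 bases before the start. Of all 35116 promoters of this length 14.8% held them. The full palindrome (AGAACA, any 3 bases, TGTTCT) was in none of the 6 and in 1 of the 35116. Only these exact letters were searched, so an element with other letters would be missed, and nothing is read from the absence. TATAAG began 28 bases before the start in TENT5B and 29 before it in RASD1, against 5.59% of all promoters with a match anywhere in the window, and TATAAA (in 11.5% of all) was in none of the 6. RASD1 held TGACG at 133 and at 78 bases before its start, and the promoter of IGSF11 at chr3:119145971-119146270 held it on the opposite strand at 45 bases before (24.6% of all promoters). CACGTG was in TENT5B at 128 bases before the start (7.26% of all).

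The 5 genes otherwise had unlike promoters. RASSF4 had 77% G and C, RASD1 76.3% and the IGSF11 promoter at chr3:119034797-119035096 78.3%, against a median of 58.7% over all promoters. DGKG (65.3%), the other IGSF11 promoter (63%) and TENT5B (62.7%) were nearer to that median. GC boxes (GGGCGG, in 45% of all promoters) numbered 9 in RASSF4, 2 each in TENT5B, RASD1 and the first IGSF11 promoter, 1 in DGKG and none in the second IGSF11 promoter, while CCAAT (34.6% of all) was found 3 times in TENT5B and once in RASSF4. A match is a description of the letters and not a bound site, and an element outside these windows would not be seen.

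In every vehicle culture all 5 genes were expressed, and in each line every dexamethasone library lay above every vehicle library for each of them. Levels are given as CPM, the counts of a gene scaled to a fixed total for each library, after scaling by the trimmed mean of M values (TMM). Over both lines the differences were close in size, with log2 fold changes from 0.99 (RASD1) to 1.30 (RASSF4), that is between 1.98-fold and 2.47-fold. Of all genes tested, 0.763% showed the same separation of treatments in both lines and 0.101% passed the test over both lines (18 genes, edgeR, adjusted p under 0.05). Since the genes were chosen on this contrast, nothing is read from these shares.

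RASSF4 (ENSG00000107551.20, GRCh38 chr10:44959407-44995891, plus strand) was at 18.2, 19.5 and 21.2 CPM in H9 vehicle cultures 1 to 3 and at 53.5, 43.7 and 51.5 CPM in the H9 dexamethasone cultures. In H1 it was at 18.6, 16.4 and 16.4 CPM with vehicle and at 45.8, 37.0 and 40.8 CPM with dexamethasone. The lowest treated culture of either line was thus well above the highest vehicle culture, and the lines had overlapping ranges at either treatment. The log2 fold change was 1.34 ± 0.12 (SE) in H9 and 1.27 ± 0.12 in H1, and their difference was 0.07 ± 0.17. RASSF4 had the smallest spread between sister cultures of the 5 genes, with a standard deviation of 0.13 on the log2 scale.

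DGKG (ENSG00000058866.14, chr3:186105668-186362237, minus strand) was at 16.9, 23.5 and 20.5 CPM in the H9 vehicle cultures and at 38.9, 48.8 and 45.1 CPM in the H9 dexamethasone cultures. The H1 cultures held far less of it, 3.01, 2.71 and 2.68 CPM with vehicle and 7.11, 5.69 and 7.62 CPM with dexamethasone. Even the treated H1 cultures remained below every untreated H9 culture. The relative difference between treatments was nevertheless close in both lines, at a log2 fold change of 1.12 ± 0.15 in H9 and 1.28 ± 0.17 in H1 (difference −0.16 ± 0.22).

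TENT5B (ENSG00000158246.7, chr1:27005020-27012836, minus strand) had the lowest counts of the 5. It was at 4.70, 3.93 and 3.94 CPM in H9 vehicle cultures and at 8.24, 8.23 and 13.0 CPM in H9 dexamethasone cultures, culture 3 of which stood above its sisters. In H1 it was at 1.36, 1.07 and 1.28 CPM with vehicle, from 32, 28 and 32 reads, and at 2.01, 2.56 and 3.24 CPM with dexamethasone. As for DGKG, all H1 cultures lay below all H9 vehicle cultures. Its log2 fold changes of 1.23 ± 0.22 in H9 and 1.07 ± 0.25 in H1 had the widest errors among the 5 genes, and their difference was 0.16 ± 0.34.

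IGSF11 (ENSG00000144847.12, chr3:118900557-119146068, minus strand) differed most between the lines in the size of its response. It was at 19.8, 15.7 and 13.4 CPM in the H9 vehicle cultures and at 48.5, 40.2 and 44.7 CPM in the H9 dexamethasone cultures. In H1 it was at 14.8, 13.9 and 14.7 CPM with vehicle, within the range of H9, and only at 27.7, 21.4 and 19.8 CPM with dexamethasone, below every treated H9 culture. The log2 fold change was 1.44 ± 0.16 in H9, the highest value of any of the 5 genes in either line, and 0.67 ± 0.16 in H1, the lowest. The difference of 0.78 ± 0.22 is a description, because the genes were chosen on the effects it is made of. Without H9 vehicle culture 3, which is set apart from its sisters as described further on, it was 0.66 ± 0.18.

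RASD1 (ENSG00000108551.4, chr17:17494437-17496395, minus strand) was at 10.0, 9.11 and 5.85 CPM in the H9 vehicle cultures and at 18.9, 16.8 and 19.6 CPM in the H9 dexamethasone cultures. In H1 it was at 5.94, 6.76 and 7.25 CPM with vehicle and at 12, 9.28 and 14.4 CPM with dexamethasone. The treatments did not overlap within a line, although H1 dexamethasone culture 2 was below H9 vehicle culture 1. The log2 fold change was 1.13 ± 0.20 in H9 and 0.84 ± 0.20 in H1, a difference of 0.29 ± 0.28. Leaving out H9 vehicle culture 3, the lowest of its group, brought the H9 value to 0.95 ± 0.15 and the difference to 0.11 ± 0.21.

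**Figure D1:**
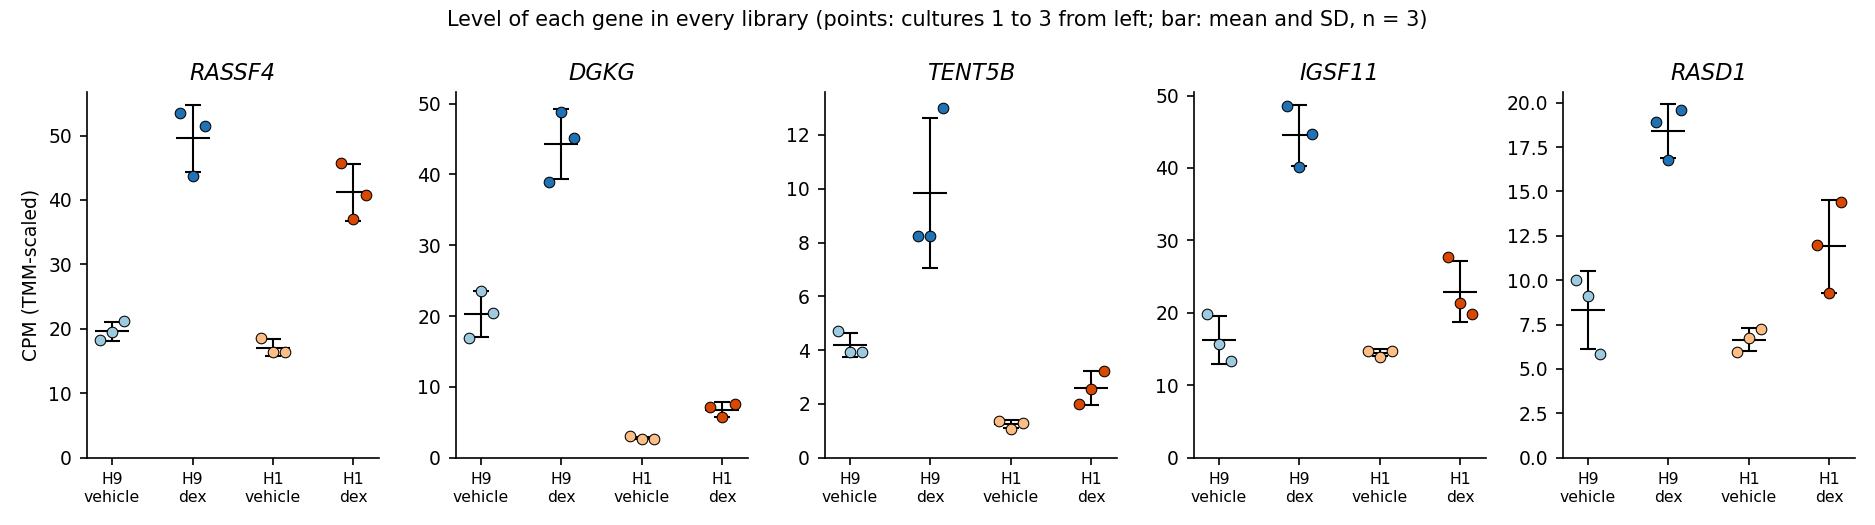
Level of each of the 5 genes in TMM-scaled CPM (vertical axis, linear from 0, a separate scale for each gene) in the 12 libraries, by line and treatment; points are single cultures, and the bars show the mean and SD of 3 cultures. Treated cultures lie above vehicle cultures of the same line in every panel, and DGKG and TENT5B are lower in H1 than in H9 at either treatment.

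**Figure D2:**
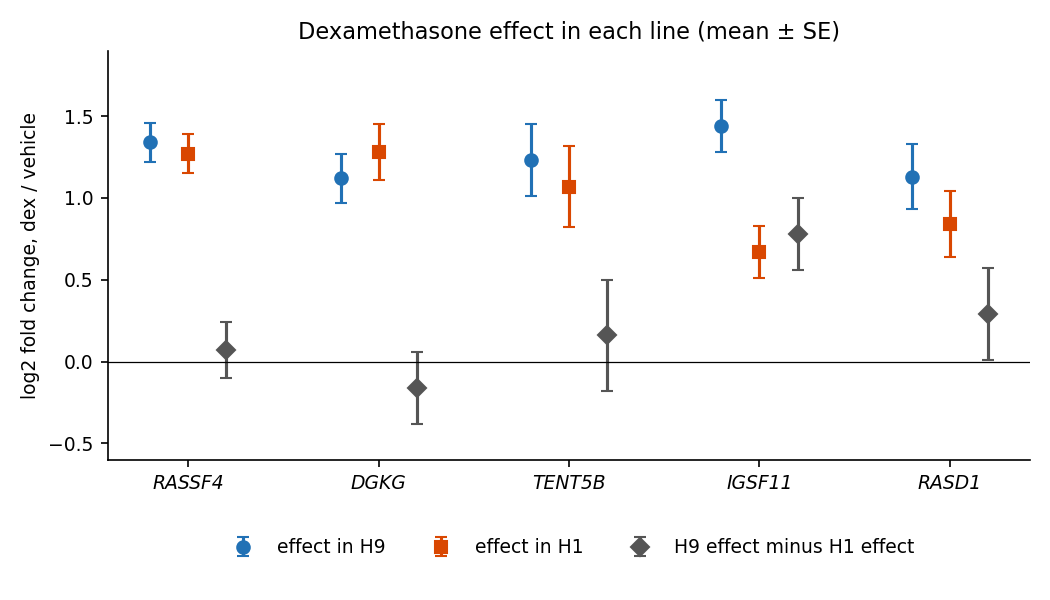
Log2 fold change of dexamethasone against vehicle for each gene in H9 (circles) and H1 (squares), and the H9 value minus the H1 value (diamonds), with bars of 1 SE. The values in the lines are near each other for RASSF4, DGKG and TENT5B, and lie furthest apart for IGSF11 (1.44 in H9 and 0.67 in H1).

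The genes can be compared with each other per kilobase of merged exons, which allows for length only in part. The merged length counts all annotated exons (9481 bases for RASSF4, 1748 for RASD1), whichever transcripts were expressed. On this scale RASD1 had the highest mean level in all 4 groups and IGSF11 the next. In H9 vehicle cultures RASD1 was at 4.76 ± 1.3 CPM per kilobase (mean ± SD, n = 3 here and below), IGSF11 at 3.33 ± 0.67, RASSF4 at 2.07 ± 0.15, DGKG at 1.85 ± 0.30 and TENT5B at 1.77 ± 0.19. The SD ranges of RASD1 and IGSF11 overlapped, as did those of the lower 3 genes. In H1 vehicle cultures the order was RASD1 (3.8 ± 0.38), IGSF11 (2.95 ± 0.097), RASSF4 (1.81 ± 0.14), TENT5B (0.522 ± 0.063) and DGKG (0.255 ± 0.016), with no overlap of neighbouring SD ranges.

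Among all genes tested these were modest levels. RASD1 lay above 51.7% of them per kilobase in H9 vehicle cultures and above 72.8% in H9 dexamethasone cultures. IGSF11 went from above 43.9% to above 69.0% in H9 and from above 43.2% to above 52.0% in H1. DGKG in H1 vehicle cultures lay above only 10.6% of the genes tested and with dexamethasone above 20.2%, against 33.8% and 48.8% in H9.

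The genes were chosen on treated against vehicle levels within each line, so both levels entered the choice. The difference of one line from the other did not enter it directly, and it was tested. In the dexamethasone cultures that difference also holds the effects used in the choice, which limits the calls there. DGKG and TENT5B were higher in H9 than in H1 vehicle cultures, and the other 3 genes did not pass. DGKG averaged 20.3 ± 3.3 CPM in H9 and 2.80 ± 0.18 CPM in H1, a log2 difference of 2.86 ± 0.17 or 7.24-fold (edgeR adjusted p = 1.79e-07). TENT5B averaged 4.19 ± 0.44 and 1.24 ± 0.15 CPM, a log2 difference of 1.76 ± 0.25 or 3.40-fold (edgeR adjusted p = 1.50e-04). All 3 H9 cultures were above all 3 H1 cultures for both genes.

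For RASSF4 the log2 difference between vehicle cultures was 0.20 ± 0.12 (edgeR adjusted p = 0.196), for IGSF11 0.18 ± 0.16 (edgeR adjusted p = 0.378) and for RASD1 0.34 ± 0.21 (edgeR adjusted p = 0.196). With these errors the levels are not shown to be equal. Without H9 vehicle culture 3 RASD1 passed at 0.52 ± 0.16 (edgeR adjusted p = 0.0111). The lines differed widely over all genes, since 46.9% of those tested passed between the vehicle cultures and 25.7% passed as higher in H9, so 2 of 5 is near the share of genes in general.

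In the dexamethasone cultures 4 of the 5 genes were higher in H9. DGKG differed by 2.70 ± 0.16 on the log2 scale (edgeR adjusted p = 1.55e-07), TENT5B by 1.92 ± 0.23 (edgeR adjusted p = 3.42e-05) and IGSF11 by 0.95 ± 0.16, from 44.5 ± 4.2 CPM in H9 and 22.9 ± 4.2 CPM in H1 (edgeR adjusted p = 4.26e-04). RASD1 differed by 0.63 ± 0.20 (edgeR adjusted p = 0.0211), and RASSF4 by 0.27 ± 0.12 without passing (edgeR adjusted p = 0.0816). The treated difference of IGSF11 holds the 0.78 ± 0.22 between its effects, which is a description, beside 0.18 ± 0.16 with vehicle. Over all genes 43.6% passed the comparison of treated cultures and 22.5% passed as higher in H9.

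Single libraries decided the calls near the threshold. RASD1 did not pass without H9 dexamethasone culture 1 (adjusted p = 0.0600 in edgeR) or culture 3 (0.0726), or without H1 dexamethasone culture 1 (0.0568) or culture 2 (0.0920). RASSF4 passed without H9 vehicle culture 3 (adjusted p = 0.0182 in edgeR) and without H9 dexamethasone culture 2 (0.0451). DGKG, TENT5B and IGSF11 kept their calls in the treated cultures in each of the 20 alternative analyses, as did DGKG and TENT5B in the vehicle cultures.

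**Figure D3:**
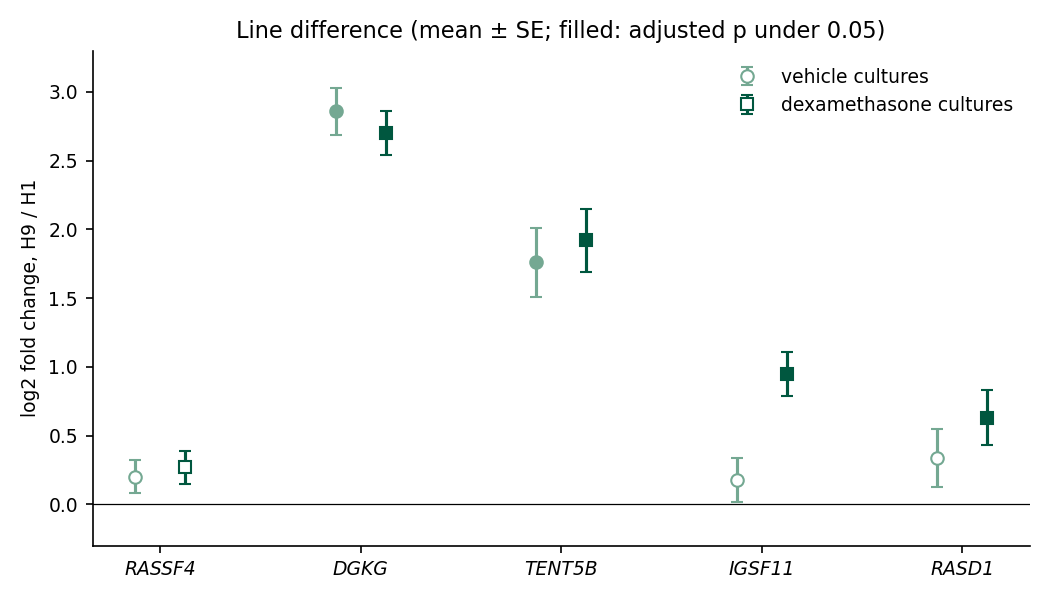
Log2 fold change of H9 against H1 in vehicle cultures (circles) and in dexamethasone cultures (squares) for the 5 genes, with bars of 1 SE; filled symbols have an edgeR adjusted p under 0.05. DGKG and TENT5B stand above 1.7 in both treatments, and IGSF11 moves from 0.18 with vehicle to 0.95 with dexamethasone.

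Lines, culture composition and any separate handling of the H9 and H1 cultures cannot be told apart, and in bulk RNA fewer cells of a type and less RNA per cell cannot be told apart either. Neurons were present by their markers, all 10 of which were tested, with a summed level of 5140 to 5380 CPM in H9 and 3480 to 3490 CPM in H1 vehicle cultures, and 6 of the 10 were higher and 1 lower in H9 (edgeR). The markers of proliferating cells were lower in H9 for 8 of 8 genes, with summed levels of 91.3 to 145 CPM against 544 to 610 CPM in H1. Mesenchymal markers summed to 233 to 381 CPM in H9 and 1820 to 3270 CPM in H1, with 4 of 8 lower and 1 higher in H9, and astrocyte markers to 853 to 1170 CPM and 717 to 838 CPM, with 4 of 8 higher. Among all 17819 genes tested, 4571 (25.7%) passed as higher in H9 vehicle cultures and 3779 as lower, 46.9% in either direction. None of the 7 microglial markers had enough counts to be tested and 2 of them had no count, while their summed level was at most 0.933 CPM. The part of these differences in the line difference of DGKG and TENT5B was not tested. None of the markers of the 10 cell types passed for dexamethasone over both lines in edgeR, where 0.101% of all genes tested did. At an unadjusted p under 0.05 (edgeR) each list had 0 to 3 genes, against 7.49% of all genes tested. The highest counts were 3 of 6 tested for the oligodendrocyte lineage and 3 of 8 for proliferating cells. In the latter 8 of 8 were above 0 over both lines, against 47.3% of all genes tested. Its median log2 fold change was 0.33 in H9 and 0.07 in H1. An unadjusted p under 0.05 (edgeR) was found for 4 and 1 of the 8, beside 16.3% and 2.95% of all genes tested. The oligodendrocyte list had 1 such gene in each line. Neither list is given without H9 vehicle culture 3. Whether composition changed with treatment was not tested.

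One library stood apart. H9 vehicle culture 3 had the lowest total count (14751168, against 20871163 to 27505804 in the other 11), 0.607% mitochondrial counts where the remaining H9 libraries had 4.8% to 5.64%, and the largest distance from its group, a root mean square log2 difference of 0.569 against 0.179 to 0.341. In that library IGSF11 and RASD1 had their lowest H9 values and RASSF4 its highest H9 vehicle value. Values without it are given for some of the results that moved, not for every gene and list. No pair of sister cultures agreed within sampling noise.

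The corticosteroid receptors that could act on these genes were both expressed. In vehicle cultures NR3C1, the glucocorticoid receptor, had a level of 37.3 ± 6.3 CPM (H9) and 31.8 ± 2.7 CPM (H1), and the line difference did not pass (0.23 ± 0.12 on the log2 scale, edgeR adjusted p = 0.130). NR3C2, the mineralocorticoid receptor, was higher in H9 vehicle cultures (15.7 ± 1.5 and 6.96 ± 0.50 CPM, log2 difference 1.17 ± 0.12, edgeR adjusted p = 1.75e-05). After dexamethasone NR3C2 was lower over both lines, by a log2 fold change of −0.60 ± 0.09 (edgeR adjusted p = 0.0237), as the 1 gene of the 17819 called lower. It was at 12.1 ± 0.99 CPM in the treated H9 cultures and 3.92 ± 0.32 CPM in the treated H1 cultures. With each library left out in turn it passed 3 times of 12 (edgeR adjusted p up to 0.110), with log2 fold changes from −0.63 to −0.56 in all 12. NR3C2 passed by DESeq2 (adjusted p = 2.15e-06) but not with the culture number as a replicate block (edgeR adjusted p = 0.186). NR3C1 had −0.21 ± 0.09 over both lines and did not pass (edgeR adjusted p = 0.645), with −0.03 ± 0.12 in H9 and −0.39 ± 0.12 in H1.

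None of the close paralogs named here for RASSF4, DGKG, TENT5B and RASD1 passed the test for dexamethasone. For IGSF11 no single paralog was named, and its relatives and receptor, 11 of 15 tested, are given as a list further on. RASSF2, a paralog of RASSF4, differed by 0.09 ± 0.07 on the log2 scale over both lines (edgeR adjusted p = 0.708). DGKB, the type I diacylglycerol kinase closest to DGKG, was at −0.07 ± 0.08 (edgeR adjusted p = 0.748). TENT5A and TENT5C, the other tested members of the TENT5 family, were at −0.02 ± 0.07 (edgeR adjusted p = 0.908) and 0.10 ± 0.16 (edgeR adjusted p = 0.799), and RASD2, the paralog of RASD1 known as Rhes in striatum, at −0.05 ± 0.15 (edgeR adjusted p = 0.907). All of these values lie well under the 0.99 to 1.30 of the 5 genes, but those were chosen because they rise, so nothing is read from the gap.

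All of these paralogs but RASSF2 differed between the lines in vehicle cultures. Of all genes tested 46.9% passed that comparison and 25.7% passed as higher in H9. With vehicle DGKB averaged 30.6 ± 3.3 CPM (H9) and 6.51 ± 0.38 CPM (H1), a log2 difference of 2.23 ± 0.11 (edgeR adjusted p = 7.19e-08). TENT5A (log2 difference 1.43 ± 0.10, edgeR adjusted p = 8.83e-07) and TENT5C (1.40 ± 0.22, edgeR adjusted p = 3.52e-04) were also higher in H9, in the same direction as TENT5B. RASD2 was higher in H9 by 1.93 ± 0.21 (edgeR adjusted p = 2.36e-05), where RASD1 itself did not pass, and RASSF2 did not pass at −0.19 ± 0.10 (edgeR adjusted p = 0.117). VSIR, the gene of the receptor VISTA, was barely detected, with 0.740 ± 0.29 CPM (H9) and 0.134 ± 0.048 CPM (H1) in vehicle cultures.

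Beyond these paralogs, families and partners of the 5 genes were examined as lists made by function, 158 genes in all, of which 144 were tested. None passed for dexamethasone over both lines in edgeR, 12 had an unadjusted p under 0.05, and DESeq2 and limma-voom also called 0. The median log2 fold change was 0.00, with 73 of 144 above 0, beside a median of −0.01 and 47.3% above 0 over all genes tested. None passed in H9 or in H1 by itself in edgeR, where 19 and 5 had an unadjusted p under 0.05. These are 8.33% over both lines, 13.2% in H9 and 3.47% in H1, near the shares of all genes tested (7.49%, 16.3% and 2.95%).

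By role, the RASSF family had 4 of 8 tested members above 0 (median 0.01) and the Hippo pathway 12 of 20 (median 0.01). The noncanonical poly(A) polymerases had 4 of 8 above 0 (median 0.02), relatives of IGSF11 in the CTX group and its receptor 6 of 11 (median 0.00), and the partners of IGSF11 at the synapse 4 of 8. Small Ras-related GTPases had 13 of 22 above 0 (median 0.11) and the partners of RASD1 9 of 17 (median 0.03).

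The lists that leaned furthest to one side moved with H9 vehicle culture 3. Of the diacylglycerol kinases other than DGKG 1 of 9 was above 0 (median −0.07), with 2 of 9 in H9 and 6 of 9 in H1, and without that culture 5 of 9 (median 0.03). Their summed level was 987 CPM in that culture and 610 to 624 CPM in its sisters. Of the enzymes that produce diacylglycerol and the proteins it activates 6 of 26 were above 0 (median −0.09), and 11 of 26 without that culture (median −0.01). The deadenylation factors, which shorten poly(A) tails, had 14 of 15 above 0 (median 0.14), with 14 of 15 in H9 (median 0.21) and 9 of 15 in H1 (median 0.03). Their summed level was 926 CPM in that culture and 1460 to 1470 CPM in its sisters, and without it 13 of 15 were above 0 with a median of 0.07. The relatives of IGSF11 and its receptor went from 6 to 3 of 11 without it, and the partners of RASD1 from 9 to 13 of 17 (median 0.02).

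The values furthest from 0 in these lists did not pass. On the low side GPA33, an adhesion molecule related to IGSF11, had a log2 fold change of −1.02 ± 0.27 (edgeR adjusted p = 0.362) and the diacylglycerol-activated kinase PRKCH −0.80 ± 0.32 (edgeR adjusted p = 0.626). On the high side RERG, a Ras-related GTPase, had 0.56 ± 0.25 (edgeR adjusted p = 0.664) and CCN2, a target of the Hippo effectors, 0.54 ± 0.20 (edgeR adjusted p = 0.605). These 4 genes were singled out after their values were seen.

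Of 18 well-known glucocorticoid targets 8 were called higher over both lines in edgeR, and the median of the list was 0.66. Among all 17819 genes tested 17 were called higher. The list was made with its results known, so nothing is read from its share or its median. The 8 called were FKBP5 (log2 fold change 2.35), HIF3A (1.53), MT2A (1.31), PER1 (1.07), KLF9 (1.07), KLF15 (0.66), DDIT4 (0.58) and TSC22D3 (0.53). ANGPTL4 passed in H1 by itself (edgeR adjusted p = 0.0337) and not over both lines (edgeR adjusted p = 0.0816).

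**Figure D4:**
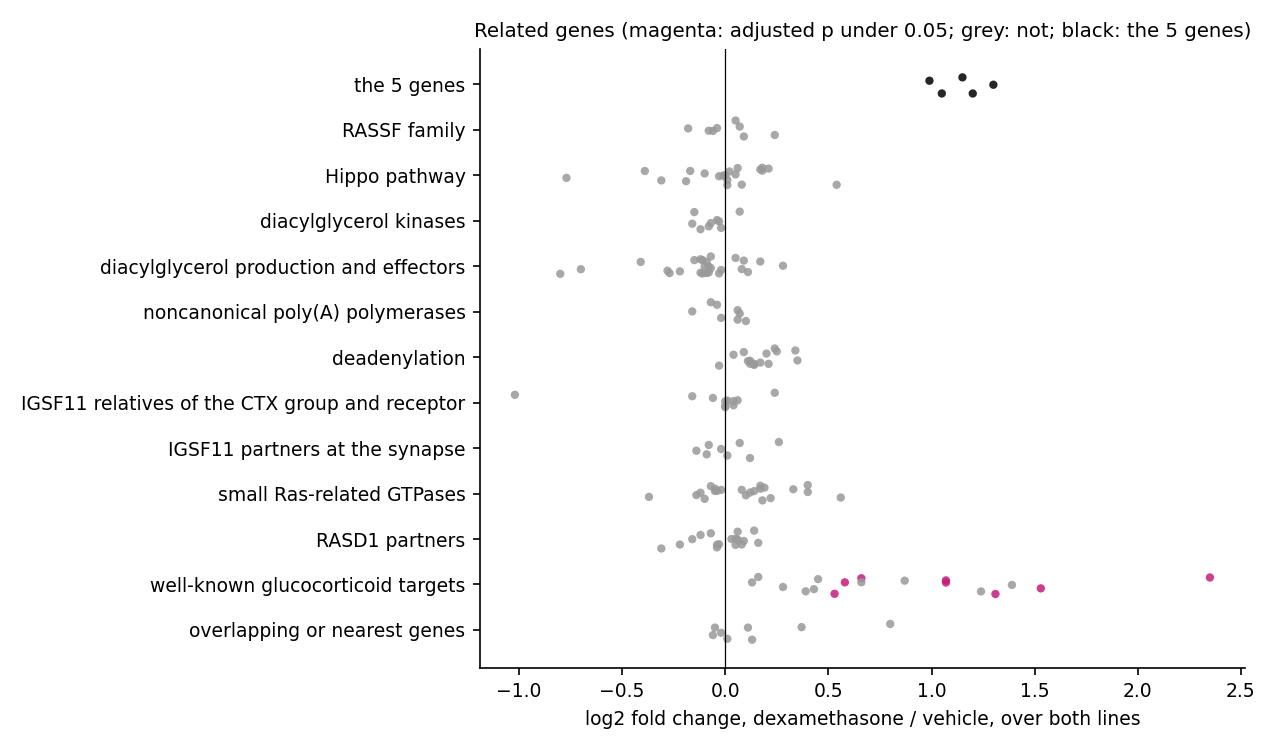
Log2 fold change of dexamethasone against vehicle over both lines (horizontal axis) for the 5 genes (black), the tested members of the family, partner and well-known target lists (the receptors are not plotted) and the genes that overlap or flank the 5; each point is 1 gene, magenta where the edgeR adjusted p is under 0.05. The family and partner lists spread around 0. All magenta points plotted are in the list of well-known targets, which was made with its results known. The 5 genes lie between 0.99 and 1.30, having been chosen on this contrast.

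The genes that overlap or lie next to the 5 were chosen by position in GENCODE 29 alone, and none of the 8 that could be tested of 15 passed over both lines in edgeR. Of all 17819 genes tested 112 passed by DESeq2, and 7.49% had an unadjusted p under 0.05 in edgeR. Among the 8 tested neighbours 2 passed by DESeq2, and 2 had an unadjusted p under 0.05 in edgeR. These were DEPP1, named as a decidual protein induced by progesterone, which lies inside RASSF4 on the opposite strand (chr10:44970981-44978810), and TRNP1, the neighbour of TENT5B (chr1:26993707-27000898), which encodes a nuclear regulator of neural progenitors and lies on the other strand, 4121 bases from TENT5B.

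DEPP1 was at 1.38, 1.25 and 2.04 CPM in the H9 vehicle cultures and at 3.75, 2.59 and 2.92 CPM in the H9 dexamethasone cultures. In H1 it was at 1.57, 1.68 and 1.48 CPM with vehicle and at 2.39, 2.60 and 2.11 CPM with dexamethasone. Treated cultures were above vehicle cultures in both lines, as for 0.763% of all genes tested. The mean effect of the lines was 0.80 ± 0.15 on the log2 scale (edgeR adjusted p = 0.114, and 0.90 ± 0.14 with adjusted p = 0.00465 without H9 vehicle culture 3). DEPP1 shares 695 bases of exon with RASSF4, and with no strand setting given in the sources used here, reads from the shared stretch cannot be assigned to one of them. In every library its level was far below that of RASSF4.

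TRNP1 was at 18.4, 22.4 and 18.4 CPM in the H9 vehicle cultures, 23.2, 23.0 and 26.0 CPM in the H9 dexamethasone cultures, 9.62, 10.4 and 11.1 CPM in the H1 vehicle cultures and 14.5, 13.5 and 14.6 CPM in the H1 dexamethasone cultures. The treated cultures lay above the vehicle cultures without overlap in either line, as for 0.763% of all genes tested. Its log2 fold change was 0.37 ± 0.08 (edgeR adjusted p = 0.199, and 0.35 ± 0.07 with adjusted p = 0.0348 without H9 vehicle culture 3). Like TENT5B it was higher in H9 than in H1 vehicle cultures, by 0.93 on the log2 scale (edgeR adjusted p = 5.84e-05).

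The other neighbours described here showed little difference. ETV5, a transcription factor gene on the same strand as DGKG that shares 164 bases of exon with it, had a log2 fold change of −0.06 ± 0.08 (edgeR adjusted p = 0.793), and in vehicle cultures it was lower in H9 (−0.72, edgeR adjusted p = 4.25e-04), opposite to DGKG. MED9 and PEMT, the flanks of RASD1, were at 0.11 ± 0.10 and −0.05 ± 0.09. TMEM72-AS1, which shares 98 bases with RASSF4, was at 0.01 ± 0.17 and ZNF22-AS1 at 0.13 ± 0.21. IGSF11-AS1 and TEX55, which starts 81 bases from IGSF11, had no count in any library, nor did a further transcript at the start of RASSF4 (ENSG00000273363). LINC02020 and ETV5-AS1 near DGKG and 2 lincRNA genes next to RASSF4 and IGSF11 had too few counts to be tested.

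**Figure D5:**
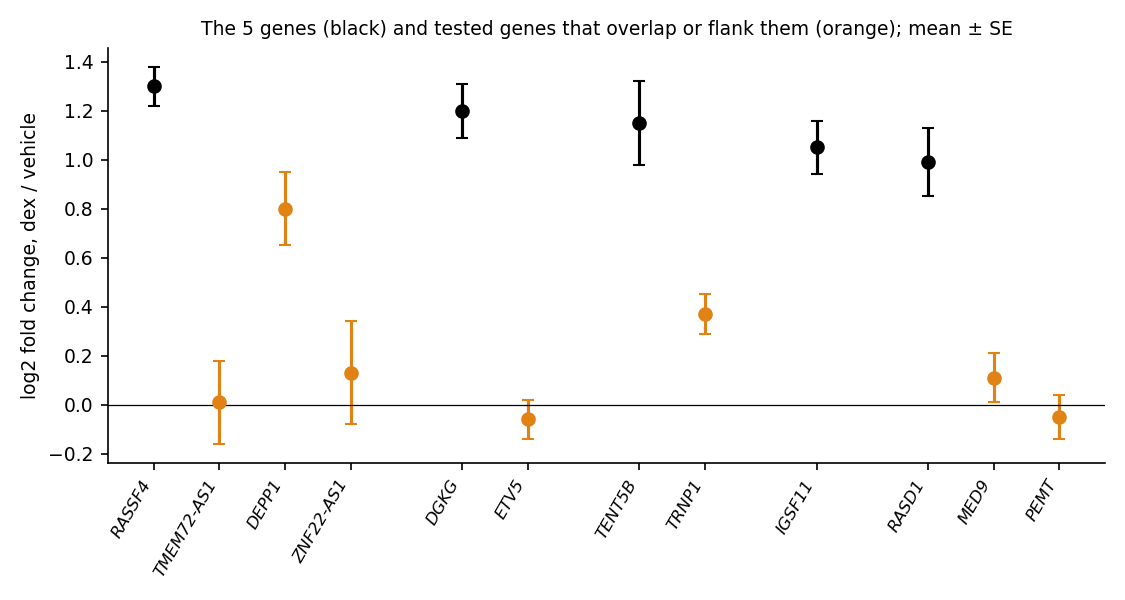
Log2 fold change of dexamethasone against vehicle over both lines for each of the 5 genes (black) and the tested genes described here that overlap or flank it (orange), with bars of 1 SE. DEPP1 at 0.80 and TRNP1 at 0.37 lie above the other neighbours shown, none of which exceeds 0.13.

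For each of the 5 genes the 3 genes most alike over the 12 libraries were found by Pearson correlation of log2 CPM after removing each line's mean. Because the treatment dominates what remains, these are a description. For RASSF4 they were FKBP5 (r = 0.975), PER1 (r = 0.975) and ADAMTS9 (r = 0.972), and for DGKG ADAMTS9 (r = 0.975), PER1 (r = 0.963) and HIF3A (r = 0.957). For IGSF11 they were KLF9 (r = 0.970), LIFR (r = 0.960) and RHOU (r = 0.942). TENT5B was most like CHST15 (r = 0.950), FOXO1 (r = 0.946) and CEBPD (r = 0.943), and RASD1 most like RRAGD (r = 0.961), DDIT4 (r = 0.948) and NEDD9 (r = 0.945). The 15 places were filled by 13 different genes. Without H9 vehicle culture 3 the same genes filled 8 of the 15, and with Spearman's correlation 4 of the 15.

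Among the 5 genes themselves the correlations over 12 libraries with line means removed ran from 0.822 (DGKG and IGSF11) to 0.963 (RASSF4 and DGKG), which the choice of genes fixes. With the mean of each of the 4 groups removed, so that only the differences between sister cultures were left, the 10 pairs ran from −0.404 (DGKG and IGSF11) to 0.463 (IGSF11 and RASD1), with a median of 0.053 and 6 of 10 above 0. The sign of these correlations was mixed, and each rests on the spread of 3 cultures a group.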

How the data were processed

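Polyadenylated RNA of 12 cultures was sequenced on a NextSeq 500, 3 sister cultures per line and treatment, grouped by the labels of line and condition. The authors deposited raw read counts per gene, 1 file per library, in whole numbers and not normalized. STAR 2.5.3a and HTSeq are named as tools, and hg38 and GRCh38.p10 as builds, in the submitters' processing notes. Not given in the sources used here are the annotation release, the strand setting of the counting and the flow cell of a library.

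From the counts, filterByExpr of edgeR 4.0.16 kept 17819 genes, and TMM factors scaled the libraries. Differences were tested by edgeR's quasi-likelihood method with 1 mean per group over all 12 libraries (8 residual degrees of freedom), Benjamini-Hochberg adjustment over all genes tested and a threshold of 0.05. The SE is the log2 fold change over the square root of F. Total counts per library were 14751168 to 27505804. A p-value here reflects only how far sister cultures vary, which may be less than separate differentiations would. The fit was tested on simulated counts. Log2 CPM for correlations used a prior count of 2.

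The 5 genes, the lists of related genes and the markers were chosen with earlier results of these data known. The text names the 5 genes, the closest paralogs, list genes that passed, overlapping and nearest genes, and the 3 most similar genes of each, and it says where a gene was named after its values were seen. The values of 1 tested gene are not reported here, though it is in the counts. Coordinates are 1-based, of genes from GENCODE 29 and of promoters from RefSeq. Alternatives covered the scaling (RLE, totals only, totals without the most abundant genes), the tool (DESeq2 1.42.0, limma-voom in limma 3.58.1), 2 other filters on low counts, fits of 1 line, a term for the culture number, and leaving out each library in turn. Effects of each line and each list without H9 vehicle culture 3, the receptors under the alternatives and the use of Spearman's correlation were added after seeing the data. Computations ran in R 4.3.3, Python 3.11.15 and matplotlib 3.10.9.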

Additional observations from a re-analysis of the deposited data

How the results depend on the processing

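The median log2 fold change of the 5 genes stayed between 1.05 and 1.24 in 22 alternatives (1.05 to 1.21 with a library left out), and none of the 144 related genes passed in any of them. The number of the 5 that passed between lines ranged from 2 to 3 with vehicle and from 3 to 5 with dexamethasone. Of the overlapping or nearest genes 2 passed under DESeq2, and 0 to 2 with a library left out (2 without H9 vehicle culture 3); the cause was not tested. Over all genes, dexamethasone called 18, against 112 with DESeq2, 30 without a filter, 2 in H9 alone, 50 in H1 alone and 10 to 140 with a library left out, and the lines with dexamethasone differed in 7777, or 11697 without H9 vehicle culture 3. Deviations of same-numbered cultures correlated at −0.0145 to 0.113 in H9 and at 0.0498 to 0.179 in H1. Those of differently numbered cultures correlated at −0.134 to 0.0841 in H9 and at −0.178 to 0.0732 in H1. Whether the culture numbers pair the samples was not tested. With number as a replicate block the median effect was 1.12, 12 genes passed over both lines, and the line calls remained 2 and 4 of the 5. TENT5B in H1, at 28 to 32 reads in the vehicle cultures, is limited most by depth.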
